A study of Rattus norvegicus with 12 samples.

Results

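The family of miR-15, miR-16, miR-195 and miR-497 is a group of miRNAs with a common seed, the short stretch near the 5′ end of a miRNA that pairs with target mRNAs. Its probes were found by name on a NanoString nCounter panel: after removal of the species prefix and any arm ending, a probe had to be called miR-15a, miR-15b, miR-16, miR-195 or miR-497. Of the 420 probes for endogenous rat miRNAs, 4 met this rule: rno-miR-16, rno-miR-15b, rno-miR-195 and rno-miR-497. A probe for miR-15a was not analysed here. The nCounter counts barcoded probe pairs one by one, without amplification, so the value for each probe and rat is a whole number of barcodes.

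The samples were platelet-depleted plasma from 12 female Wistar rats, 1 sample of 1.5 ml per rat. The control group was 6 non-pregnant rats, of 110 to 269 days of age. The pregnant group was 6 rats at embryonic day E14.5 after timed mating, of 103 to 373 days, and in each group 4 rats were younger than 200 days. Blood was drawn from the heart after death. The study asked how far the processing of such counts decides which plasma miRNAs appear to change in pregnancy.

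miRNAs of this family repress mRNAs for cyclins, cyclin-dependent kinases, Chek1 and the survival factor Bcl2, and are known for holding back the cell cycle. The miR-15a/miR-16 gene pair is a tumour suppressor that is often lost in chronic lymphocytic leukaemia, and miR-195 and miR-497 are best known from heart and skeletal muscle, where the family takes part in the exit of heart muscle cells from the cell cycle after birth. In blood, miR-16 is abundant in red cells and platelets and has often been used as a plasma reference.

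All 4 probes were matched by name to a mature 5p sequence of RefSeq on build GRCr8. The probes are named without an arm, and the 5p arm is shown because it carries the family seed. These sequences show what the members share and where they part, with the seed, bases 2 to 8, in capitals.
rno-miR-16-5p: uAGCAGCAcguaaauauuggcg
rno-miR-15b-5p: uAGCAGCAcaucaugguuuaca
rno-miR-195-5p: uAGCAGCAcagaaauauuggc
rno-miR-497-5p: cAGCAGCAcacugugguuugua

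Outside the seed the members differed. Counted from the 5′ end, miR-195-5p had the same base as miR-16-5p at 19 of 21 positions, miR-15b-5p at 14 of 22 and miR-497-5p at 11 of 22. How far the miR-16 and miR-195 probes tell their close sequences apart is not given in the sources used here. Among 693 mature rat sequences in the table, 5 had this seed, and the fifth was miR-322-5p, whose probe is also on the panel. It is shown with miR-503-5p and miR-103-3p, relatives with an altered or shifted seed, with bases 2 to 8 again in capitals.
rno-miR-322-5p: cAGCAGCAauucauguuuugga
rno-miR-503-5p: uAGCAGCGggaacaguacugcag
rno-miR-103-3p: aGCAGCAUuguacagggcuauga

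The members lie in a pair of small clusters. Mature miR-16-5p lies at chr2:155555343-155555364 and miR-15b-5p at chr2:155555197-155555218, both on the plus strand of GRCr8, and both hairpins lie within the span of Smc4, the gene of a condensin subunit. The hairpins are 51 bases apart. Mature miR-195-5p lies at chr10:55450509-55450529 and miR-497-5p at chr10:55450172-55450193, also on the plus strand, with 255 bases between their hairpins. The miR-16 hairpin, chr2:155555327-155555421, is printed in full because miR-16 carries most of the results below, with the mature 5p strand in capitals.
Mir16: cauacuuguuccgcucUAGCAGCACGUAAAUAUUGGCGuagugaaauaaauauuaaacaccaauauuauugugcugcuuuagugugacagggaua

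Of the 4 members, miR-16 was counted far above the others in 10 of the 12 rats and was at the lowest value of the table in the other 2, which were both pregnant. The raw counts of miR-16 in control replicates 1 to 6 were 256, 167, 256, 506, 231 and 352. In pregnant replicates 1 to 6 they were 1, 1, 157, 335, 1787 and 1861. The control rats thus spanned a 3.03-fold range, whereas pregnant rats lay on both sides of it: pregnant replicates 1, 2 and 3 were below the lowest control rat, pregnant replicate 4 lay among the controls, and pregnant replicates 5 and 6 were above the highest.

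The mean raw count of miR-16 was 294.7 ± 119.4 for control and 690.3 ± 887.0 for pregnant rats (SD, n = 6 each), while the medians were close, at 256 and 246. The groups overlapped, and in the pregnant group the SD was larger than the mean. Over all rats miR-16 had the fifth highest mean count of the endogenous probes.

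The lowest count of miR-16 was a tie between pregnant replicates 1 and 2, of 269 and 103 days of age. A count of 1 has an exact 95% Poisson interval of 0.0253 to 5.57, which covers counting error only, as do all intervals for single counts and ratios here. It is also the smallest value in the table, and whether a count of 0 was written as 1 is not given in the sources used here. In these 2 rats miR-16 ranked 387 and 388 of 420 probes by count, each the top of a tie for last place. In the other 10 rats it ranked 2 to 8.

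No other abundant probe behaved in this way. Of the 15 endogenous probes with a median of at least 100 counts, miR-16 was the only one with a count of 1 in any rat. Its lowest count was 0.00391 of its median, and the next lowest quotient was 0.0571, for the liver miRNA miR-122. Over all 420 probes, miR-16 was the only 1 that stood at 1 in both of these rats and at 2 or more in each of the others.

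Values that describe the libraries of these 2 rats are as follows. Their endogenous probes summed to 8723 counts in pregnant replicate 1 and 5163 in pregnant replicate 2, the lowest sum of any rat, against a median of 9872 and a highest of 30301 in pregnant replicate 6. They had 34 and 33 endogenous probes at a count of 1, within the 20 to 50 of all rats. Probes for 4 exogenous miRNAs without a spike-in, which give a measure of unspecific counts, read between 2 and 23 in them, so miR-16 was below each of these probes. The part of depth or hybridisation in the miR-16 count was not tested.

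In these 2 rats miR-15b was counted above miR-16. The raw counts of miR-15b, the neighbour of miR-16 in the genome, were 22, 23, 22, 27, 17 and 20 in control replicates 1 to 6, and 24, 13, 18, 14, 56 and 58 in pregnant replicates 1 to 6. The control mean was 21.8 ± 3.31 and the pregnant mean 30.5 ± 20.9 (SD, n = 6 each). As for miR-16, pregnant replicates 5 and 6 were the highest rats, but in pregnant replicate 1, with miR-16 at 1, miR-15b was inside the control range. In pregnant replicate 2, the other such rat, its 13 counts were the lowest of all 12 rats. The count of miR-16 was 7.26 to 18.7 times that of miR-15b in the control rats. In pregnant replicates 3 to 6 it was 8.72 to 32.1 times as high, and in pregnant replicates 1 and 2 it was 0.0417 and 0.0769 times as high.

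The remaining members had few counts in every rat. miR-195 read 7, 3, 8, 5, 2 and 3 counts in control replicates 1 to 6, and 4, 6, 6, 4, 5 and 11 in pregnant replicates 1 to 6. miR-497 read 5, 5, 5, 3, 4 and 6 in the control rats and 4, 6, 3, 4, 9 and 3 in the pregnant rats, in the same order. Both groups overlapped for both probes.

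**Figure D1:**
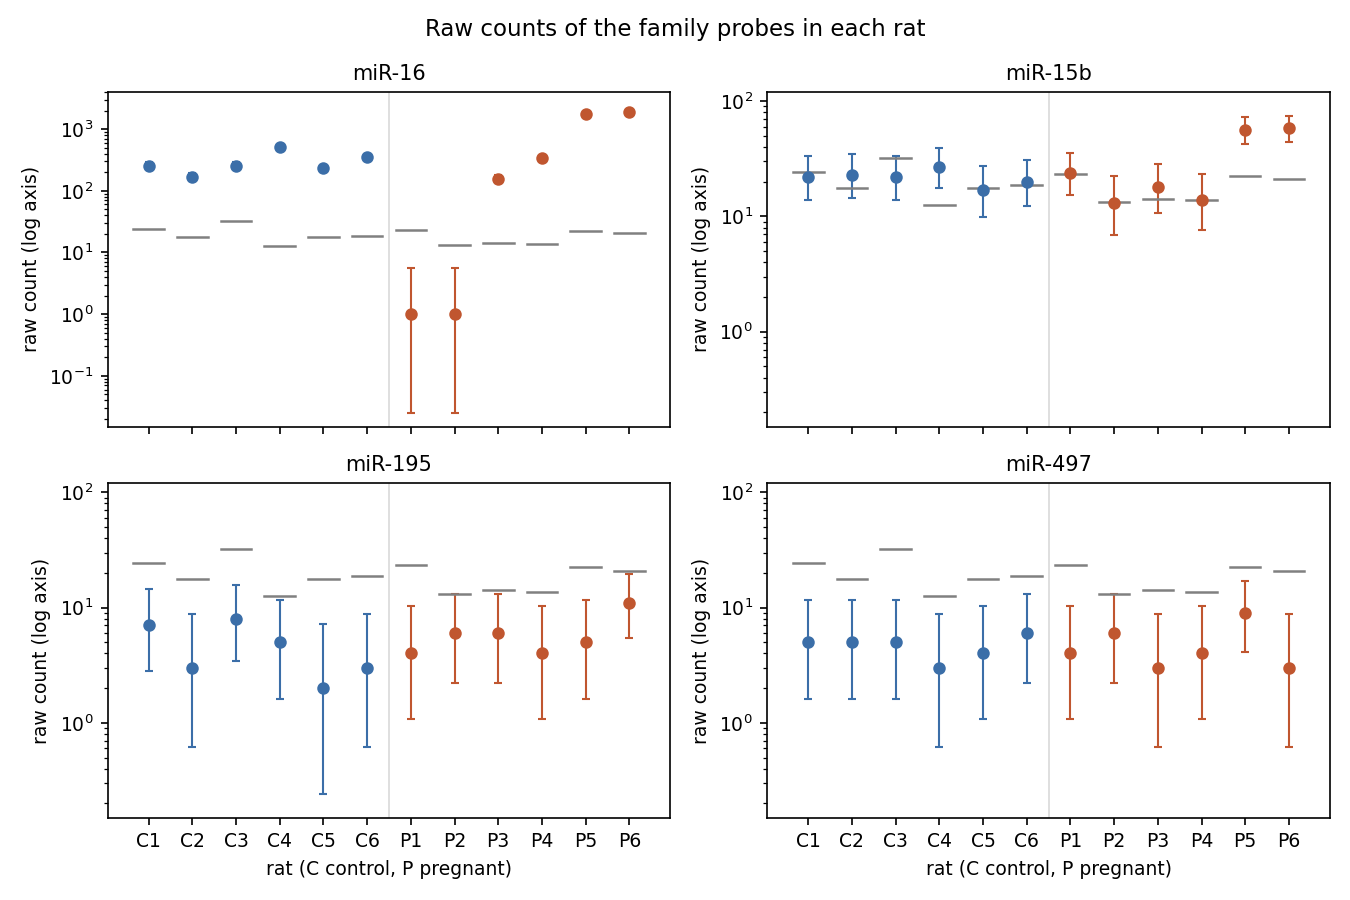
Raw count of each family probe (log axis) in the 6 control (C, blue) and 6 pregnant (P, orange) rats, numbered by replicate; bars are exact 95% Poisson intervals and grey lines the mean + 1 SD of 4 exogenous probes without a spike-in in that rat. miR-16 stands at 1 in P1 and P2 and at 157 to 1861 in the other 10 rats, miR-15b lies near the grey lines except in P5 and P6, and miR-195 and miR-497 lie below them in all 12 rats.

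Whether a probe exceeded unspecific signal was judged against the mean + 1 SD of these 4 exogenous probes, ath-miR159a and osa-miR442 from plants and cel-miR-248 with cel-miR-254 from a worm, which ran from 12.6 to 32.4 counts per rat. miR-16 was above it in 10 rats, 6 control and 4 pregnant, and the same number held at the mean and at the mean + 2 SD. miR-15b was above it in 8 rats, 3 control and 5 pregnant, in 12 at the mean, and in 3 at the mean + 2 SD. miR-195 and miR-497 were above it in 0 rats, also at the mean, so their counts cannot be told from unspecific signal at this depth. Of all 420 endogenous probes, 230 were above it in 0 rats and 56 in 10 rats or more.

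The seed relative miR-322, encoded beside miR-503 on the X chromosome, read 1 to 8 counts over the rats. miR-503 read 2 to 7 and miR-103, a ubiquitous miRNA, 2 to 13, while miR-107 read 1 in all 12 rats. None of the 4 was above the mean + 1 SD in any rat. miR-424, miR-646 and miR-6342 were not analysed here.

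Taken as a share of all endogenous counts, the 4 members made up 1.97% to 6.09% in control rats and 0.378% to 7.73% in pregnant rats. miR-16 held 84.3% to 96.3% of the family counts in 10 rats. In pregnant replicates 1 and 2 it held 3.03% and 3.85%, and miR-15b was then the most counted member.

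Whether pregnancy changed the members was tested with edgeR's quasi-likelihood test on the raw counts, scaled by TMM (a trimmed mean that sets the bulk of the probes equal between rats) and adjusted by Benjamini-Hochberg over the 187 endogenous probes that reached 10 counts in 6 rats or more. The lowest TMM factor was 0.479, in pregnant replicate 6, with 28535 counts over the tested probes. The highest was 1.96, in pregnant replicate 2, with 4054 counts. Of all 420 endogenous probes, 93 were above the background measure in 6 rats or more. The part of unspecific signal in the TMM factors was not tested. miR-16 and miR-15b were among the 187 tested probes. miR-195 and miR-497 were not, and their values come from the same fit on all 420 probes. In this comparison 0 of the 187 probes had an adjusted p under 0.05, a background of 0%, and 11 probes, or 5.88%, had an unadjusted p under 0.05, with no member among them. DESeq2 also called 0 probes (8 unadjusted), as did limma-voom and the exact permutation test of log2 values (6 unadjusted each).

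On the CPM scale, counts set to a common total per rat after TMM, miR-16 ran from 19719 to 58423 in control rats and from 114 to 136197 in pregnant rats. Of the pregnant rats, 2 were above the highest control rat and 2 below the lowest. The edgeR log2 fold change of pregnant over control rats was 0.76 (standard error 1.07, 95% confidence interval -1.52 to 3.03, edgeR adjusted p = 0.926). Both a fall and a rise lie inside this interval, and 3 of 6 pregnant rats were above the control mean.

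Even the sign of the miR-16 difference rested on how the rats were averaged. edgeR, which fits the mean counts of the groups, gave a positive value. The difference of the mean log2 CPM was -1.96 (two-sided exact permutation test over 924 assignments, adjusted p = 1), and limma-voom, also on log2 values, gave -2.27 (limma-voom adjusted p = 0.985). With the total count of each rat in place of TMM the edgeR value was -0.23. With both rats at a count of 1 left out, a choice made after their counts had been seen and so given without a test, it was 1.30. In that setting 2 other probes passed an edgeR adjusted p of 0.05, miR-203 with a log2 fold change of 1.49 and miR-215 with 2.87.

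miR-15b ran from 2002 to 3117 CPM in control and from 1637 to 4245 CPM in pregnant rats. Its log2 fold change was 0.26 (standard error 0.24, 95% confidence interval -0.26 to 0.78, edgeR adjusted p = 0.805). Again 2 pregnant rats were above and 2 below all control rats. The interval is narrower than that of miR-16 and also spans 0. With library size in place of TMM the value was -0.29.

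For miR-195 the log2 fold change was 0.30 (standard error 0.34, edgeR adjusted p = 0.986 over all 420 probes). For miR-497 it was -0.02 (standard error 0.31, edgeR adjusted p = 0.996). Both rest on counts of 11 or fewer per rat.

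The differences were then derived with 14 processing workflows of the kind that nSolver, the software of the assay, offers. Workflows 1 and 2 had no background correction, workflows 3 to 8 subtracted the background and workflows 9 to 14 raised low values to it, at the mean, the mean + 1 SD or the mean + 2 SD. Each was normalised either to 5 stable probes chosen by NormFinder or to the 38 probes above background in all rats, called the total RNA normalisers. Neither miR-16 nor miR-15b was among the 38. Group means of linear values were compared by a two-sided exact permutation test over 924 assignments.

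miR-16 was higher in pregnant rats in 13 of the 14 workflows, with log2 ratios of group means from -0.03 to 0.78 and exact p from 0.431 to 0.961. The lowest value came from workflow 6, subtraction of the mean + 2 SD with total RNA normalisers. In the 2 rats with a count of 1, processing moved miR-16 to between 0.968 and 2.66 in workflows 1 to 8 and to between 8.25 and 34.8 in workflows 9 to 14, so thresholding put it at the background level of the rat.

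miR-15b was more open to the background step. It was higher in pregnant rats in 11 of 14 workflows, with log2 ratios from -0.20 in workflow 12 to 1.37 in workflow 3 and exact p from 0.288 to 0.959. In workflow 3, which subtracted the mean + 2 SD, its mean was 6.43 ± 8.37 for pregnant and 2.49 ± 3.06 for control rats (SD, n = 6 each). Without background correction, in workflow 1, they were 26.3 ± 12.4 and 23.6 ± 3.64, a log2 ratio of 0.15. miR-195 was higher in pregnant rats in 2 workflows and miR-497 in 1, and after correction their values were mostly the floor or the threshold itself.

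No member had an exact p under 0.05 in any of the 14 workflows. The share of all 420 probes with an unadjusted exact p under 0.05 was 4.05% and 1.67% in workflows 1 and 2. It was 4.29%, 2.86%, 1.19%, 0.952%, 1.43% and 1.19% in workflows 3 to 8, and 0%, 0.714%, 2.62%, 0.238%, 0.238% and 0.238% in workflows 9 to 14.

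**Figure D2:**
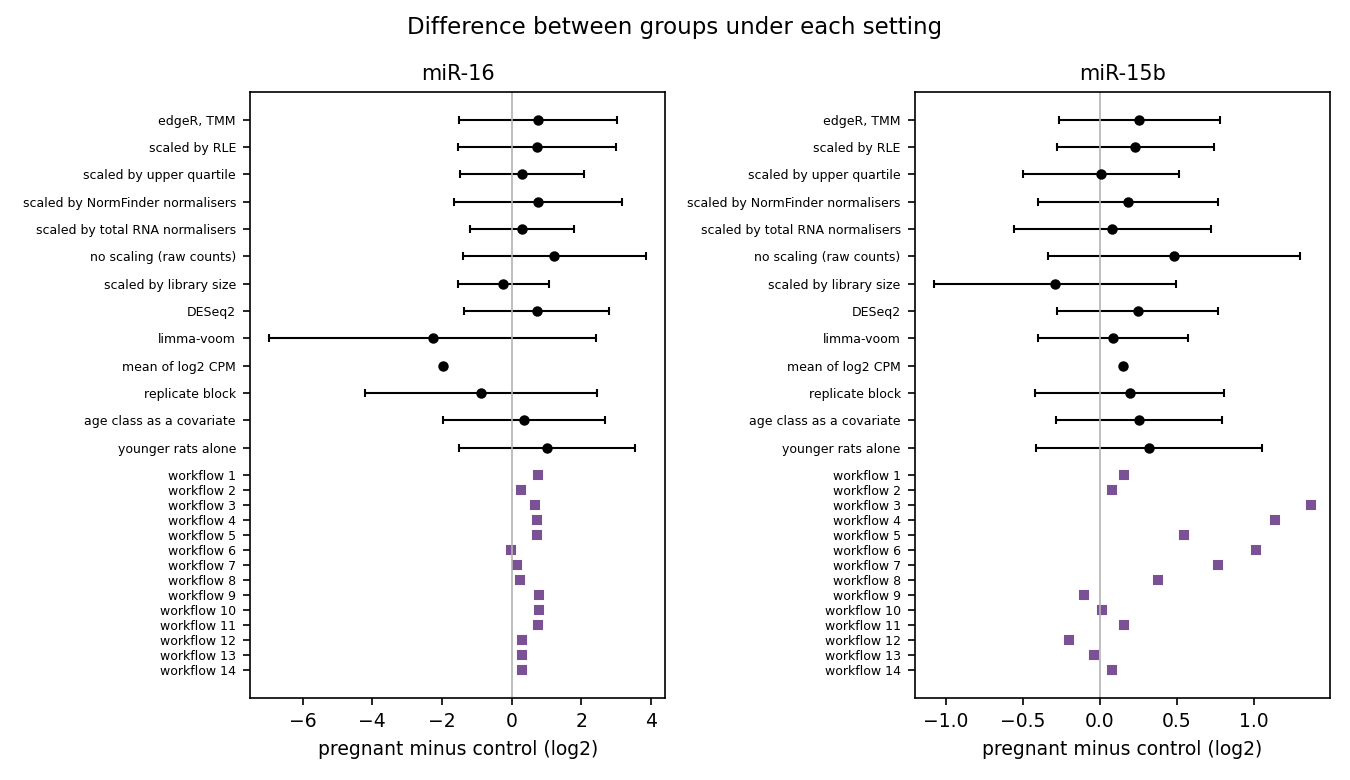
Difference of miR-16 and of miR-15b between pregnant and control rats (log2, x axis) under 13 settings of the count models (black points with 95% confidence intervals, none for the mean of log2 CPM) and in 14 workflows (purple squares, log2 ratio of group means). For miR-16 the points run from -2.27 to 1.23 and every interval spans 0, and for miR-15b workflows 3, 4 and 6 lie above 1 while workflow 12 lies at -0.20.

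A ratio of probes within a rat does not depend on the scaling between rats, so miR-16 was set against 3 references: miR-451, which is made in red cell precursors, miR-126, an endothelial and platelet miRNA, and miR-23a, the reference of the haemolysis check in the study. The ratio of miR-16 to miR-451 was 0.627, 1.22, 0.558, 0.70, 1.06 and 0.597 in control replicates 1 to 6. In pregnant replicates 3 to 6 it was 0.525, 0.644, 0.707 and 1.43, close to the control range, while in pregnant replicates 1 and 2 it was 0.00595 and 0.0208. The upper 95% bounds of the latter, 0.0336 and 0.122, were below every other rat.

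The same 2 rats were apart from the rest against the other references. miR-16 over miR-126 was 1.72 to 11.4 in control rats and 2.47 to 4.79 in pregnant replicates 3 to 6, but 0.0263 and 0.0625 in pregnant replicates 1 and 2. miR-16 over miR-23a was 1.15 to 3.96 in control rats and 1.67 to 3.88 in pregnant replicates 3 to 6, but 0.0278 and 0.0313 in pregnant replicates 1 and 2. The counts of miR-451 in those rats were 168 and 48, those of miR-126 38 and 16, and those of miR-23a 36 and 32.

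Between groups, the difference of the mean log2 ratio, pregnant minus control, was -2.02 against miR-451 (two-sided exact permutation p = 0.258, adjusted over 3 ratios 0.260). It was -2.25 against miR-126 (exact p = 0.212, adjusted 0.260) and -2.01 against miR-23a (exact p = 0.260, adjusted 0.260). Without both rats at a count of 1 the differences were 0.01, -0.06 and 0.06. With pregnant replicate 1 alone left out the differences were -1.03, -1.25 and -1.16, and with pregnant replicate 2 alone left out -1.39, -1.50 and -1.20, in the same order. Of all fits that left out 1 rat, 1 had an unadjusted exact p under 0.05, that of the miR-451 ratio without pregnant replicate 6, at -2.61 (exact p = 0.0411). That fit was 1 of many and kept both rats at a count of 1, on which these differences rest, so no conclusion is drawn from it.

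**Figure D3:**
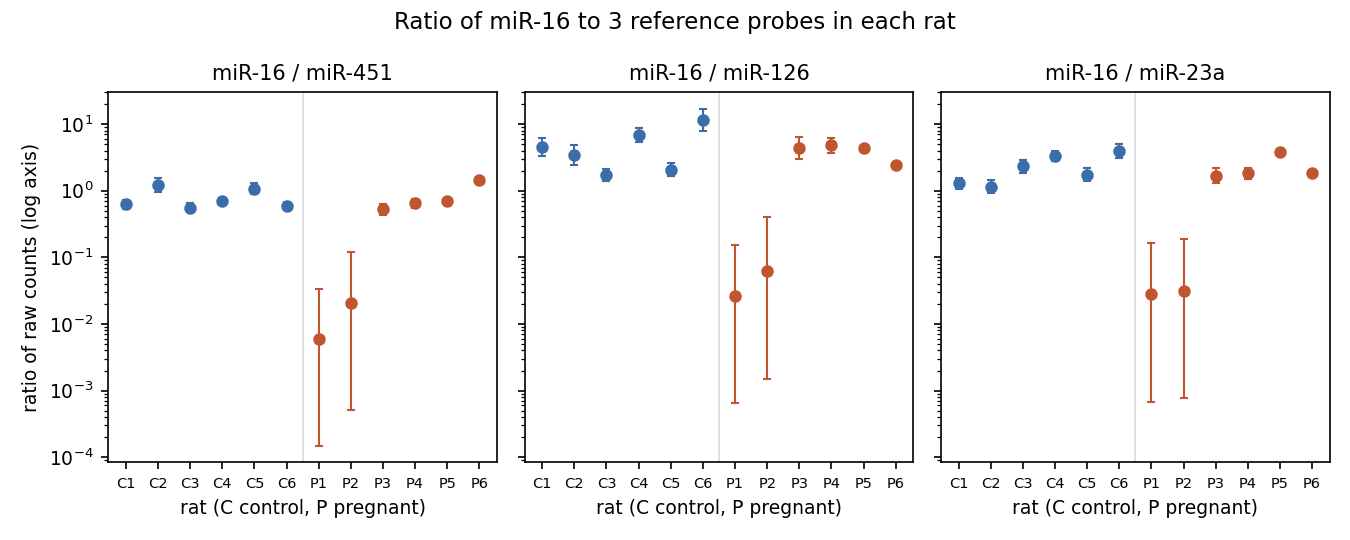
Ratio of the raw count of miR-16 to that of miR-451, miR-126 and miR-23a (log axis) in each control (C, blue) and pregnant (P, orange) rat, with 95% intervals for counting error. In each panel P1 and P2 lie at 0.0625 or lower and the other 10 rats at 0.525 or higher.

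The spread between rats is given as a description, without a test, since miR-16 was picked out with its low counts known. The mean absolute deviation of log2 CPM of miR-16 from the group median was 3.56 for pregnant and 0.385 for control rats. The difference of 3.17 lay between 2.16 and 3.65 with any 1 rat left out. Without both rats at a count of 1 it was 0.675, so most of it rested on these counts, which were below the background measure.

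Of the 2 rats with miR-16 at 1, the first was in the older and the second in the younger age class. The interaction of pregnancy with age class (4 younger and 2 older rats per group) was below an adjusted p of 0.05 in edgeR for 0 of 187 probes (0%; 9 unadjusted). It was -2.20 on the log2 scale for miR-16 (standard error 2.18, edgeR adjusted p = 0.806) and -0.29 for miR-15b (standard error 0.55, edgeR adjusted p = 0.905). With 2 older rats per group, each of them decides much of this value, and that of miR-16 lay between -8.48 without pregnant replicate 3 and -1.10 without pregnant replicate 1. With age in days in place of the class it was -0.40 per 100 days of age (standard error 1.28, edgeR adjusted p = 0.983). Without pregnant replicate 2, 4 of 187 probes were called, with no member among them.

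Which other miRNAs followed miR-16 from rat to rat was examined with log2 CPM, for miR-15b, miR-23a and 13 blood, liver and muscle markers. All levels of a rat share its TMM factor, and the part of unspecific signal in that factor was not tested. In miR-16 the rats fell into clusters, with pregnant replicates 1 and 2 far below the rest and pregnant replicates 5 and 6 above, so the test was made on ranks. Of the 15 relations over all 12 rats, 7 had a Spearman permutation p under 0.05 after adjustment over the 15. Values for the 10 rats without the 2 lowest, and for the 8 middle rats, are given beside them as descriptions without a test, since these rats were set apart by their miR-16 counts.

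For miR-451 Spearman's rho was 0.930 (permutation p = 9e-05, adjusted 0.00095), the highest of the 15. In the 10 rats rho was 0.915 and Pearson's r 0.873, and in the 8 middle rats r was 0.818. In the 6 control rats r was 0.845, and in all 6 pregnant rats it was 0.918. The other red cell probe, miR-144, had a rho of 0.594 (permutation p = 0.0462, adjusted 0.0770). Its r was -0.140 in the control rats, 0.833 in the pregnant rats and -0.164 in the middle rats.

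For miR-192, found in liver and gut epithelium, rho was 0.902 (permutation p = 0.00018, adjusted 0.00095). Within the 10 rats its rho was 0.867 and its r 0.937, and in the middle rats r was 0.722. This relation depended on the scaling: with library size in place of TMM rho was 0.566 (permutation p = 0.0588 before adjustment), and with total RNA normalisers it was 0.615. For the lymphocyte miRNA miR-150 rho was 0.895 (permutation p = 0.00019, adjusted 0.00095). Within the 10 rats its rho was 0.830 and its r 0.841, and in the middle rats r was 0.662.

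miR-191 is on the study's list for platelets, though the study also used it as a miRNA strongly expressed in plasma. Its rho was 0.811 (permutation p = 0.00218, adjusted 0.00818) over all 12 rats and 0.758 in the 10 rats. Its r was 0.904 in the 10 rats and 0.582 in the middle rats. For miR-23a rho was 0.755 (permutation p = 0.00608, adjusted 0.0182) and for miR-126 it was 0.720 (permutation p = 0.0109, adjusted 0.0253). In the 10 rats rho was lower, at 0.588 for miR-23a and 0.612 for miR-126. Pearson's r there was 0.789 and 0.770, but in the middle rats it was 0.300 and 0.194. The seventh was miR-181a, with a rho of 0.713 (permutation p = 0.0118, adjusted 0.0253). Its rho was 0.55 and its r 0.505 in the 10 rats, and its r was 0.181 in the middle rats. miR-223, which the study also lists for platelets, had a rho of 0.629 (permutation p = 0.0329, adjusted 0.0617). Its r was 0.0329 in the middle rats.

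miR-15b, with the same seed and a neighbouring gene, had a rho of 0.378 with miR-16 (permutation p = 0.228, adjusted 0.285). In the 10 rats its rho was 0.358 and its r 0.784. In the middle rats its r was 0.138, so the r of 0.784 rested on pregnant replicates 5 and 6. miR-122, the most counted plasma miRNA here and a liver product, had a rho of -0.03 (permutation p = 0.939, adjusted 0.974).

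**Figure D4:**
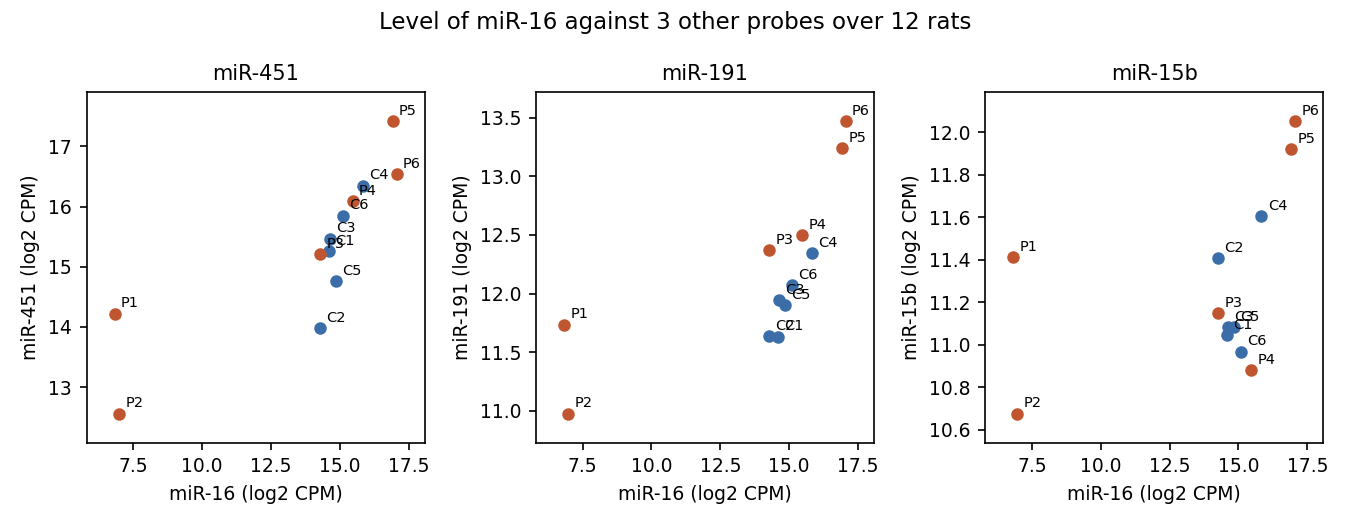
Level of miR-451, miR-191 and miR-15b (y axes, log2 CPM) against that of miR-16 (x axes, log2 CPM) in the control (C, blue) and pregnant (P, orange) rats. P1 and P2 lie far to the left in each panel. Among the other rats miR-451 and miR-191 rise with miR-16, whereas miR-15b does so chiefly through P5 and P6. Without P1 and P2 r was 0.873 for miR-451 and 0.904 for miR-191, and rho was 0.915 and 0.758.

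As a description without a test, the 186 other probes past the count filter were ordered by their Spearman rho with miR-16 over the 12 rats. The levels share the scaling factor of the rat, and the median rho was -0.01. The most similar were miR-106b (0.944) and miR-25 (0.937), which come from one gene cluster, then miR-451 (0.930), the blood cell miRNA miR-142-3p (0.916) and miR-192 (0.902). Without pregnant replicates 1 and 2 these 5 values lay between 0.867 and 0.915, and on raw counts between 0.863 and 0.961, while the value of miR-192 fell to the 0.566 given above with library size scaling. The least similar were miR-3592 (-0.867), miR-3594-5p (-0.818) and miR-3581 (-0.811). On raw counts these were -0.358, 0.0510 and -0.0283, so much of their negative rho came with the scaling. miR-15b was at place 56 of 186.

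Marker probes of blood cells, liver and muscle were summed as raw counts, with no background removed. miR-194, at 1 to 6 counts, and miR-133b, at 2 to 7, were below the background measure in every rat. The study reported that the haemolysis ratio of every sample was below its threshold. It added that miR-23a, the reference in that ratio, varied most of the miRNAs it tested and may be unsuitable as a normaliser. Here miR-23a ran from 32 to 1005 counts over the rats. None of the study's workflows found a significant change of miR-451a or miR-126. The 2 red cell miRNAs in the table, miR-451 and miR-144, summed to 149 to 737 counts in control and 55 to 2672 in pregnant rats. The platelet list (miR-126, miR-191, miR-223 and miR-24, the last at 1 in all rats) summed to 95 to 208 and 42 to 997, and the lymphocyte list (miR-150 and miR-181a) to 165 to 616 and 52 to 1959. miR-16, which the study also names among platelet miRNAs, was left out of the platelet list here. The study adds that some of the miRNAs it lists are not specific to platelets, such as miR-223, also found in granulocytes. For the liver list (miR-122, miR-192 and miR-194) the sums were 146 to 2649 and 87 to 5733, and for the 6 muscle miRNAs, of which miR-208 was at 1 in all rats, 107 to 207 and 74 to 389.

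None of these lists had a probe with an edgeR adjusted p under 0.05, against the 0% of all probes. The median log2 fold change was 0.94 for the 2 red cell probes, 0.68 for 3 platelet probes, 0.26 for 2 lymphocyte probes, 1.33 for 2 liver probes and -0.15 for 4 muscle probes tested, against 0.05 over all 187. Without adjustment, miR-144 with 1.31 and miR-192 with 1.01 had a p under 0.05. The part of these cells in the miR-16 counts was not tested, and in plasma the number of cells that released a miRNA and the amount released per cell cannot be told apart.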

How the data were processed

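Plasma RNA of 12 rats was counted with the Rat v1.5 miRNA codeset. The authors deposited raw counts per probe, read on the nCounter with no background correction or normalisation. The table analysed here has 420 endogenous, 5 exogenous and 4 mRNA probes. Negative and positive control probes were not used here, and the 4 exogenous probes without a spike-in stood in for the background. Groups, ages and replicate numbers came from the sample labels. Each rat was 1 replicate, and 0 of 66 pairs of rats had identical counts.

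Counts were tested with edgeR 4.0.16 (TMM, glmQLFit and glmQLFTest, R 4.3.3) on endogenous probes that reached 10 counts in 6 rats or more. The standard error was the log2 fold change over the root of the F value. DESeq2 1.42.0, limma 3.58.1 and exact permutation tests (two-sided, all 924 assignments) were alternatives, and correlations used 100000 permutations (numpy 2.4.6, scipy 1.17.1). Subtracted values under 1 were set to 1. The code was tested on simulated data.

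The members, marker lists and probes to be named were chosen with earlier results of these data known. The probes named were all members, their seed relatives, the markers, and the 5 most and 3 least similar to miR-16. Library sizes were summed over the tested probes, a choice made after both this and the sum over all 420 endogenous probes had been run, to match earlier processing of these counts. The variance term of NormFinder was likewise set so that the stability values matched those of that processing. The probes so chosen differ from those of the study. Other scalings, filters, age models, background levels and leaving out each rat were tried, and endogenous totals of 5163 to 30301 counts per rat limit the precision of rare probes.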

Additional observations from a re-analysis of the deposited data

Results flagged for a closer look

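The count of miR-195 in pregnant replicate 6, 11, was far from the other 5 pregnant rats, at 4 to 6. Its gap to the nearest rat was 0.714 of the range of the group, above the 95% critical value of Dixon's test for 6 samples. Of 22 groups of 6 rats examined it was the only such case, where chance gives about 1 in 20. Pregnant replicate 6 also had the highest endogenous total, 30301 counts, and as TMM-scaled log2 CPM its miR-195 value was not past that critical value. The part of the total in the miR-195 count was not tested.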

How the results depend on the processing

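No member passed an adjusted p of 0.05 in any count model that was tested, and none an exact p of 0.05 in any workflow. The edgeR comparison of pregnant with control rats called 0 probes with each scaling, filter and age covariate and with any 1 rat left out, whereas its age interaction called 4 of 187 without pregnant replicate 2. With both rats at a miR-16 count of 1 left out, a setting chosen after the counts were seen by miR-16's own value, 2 of 187 probes were called, and 11 when library sizes were also summed over all 420 endogenous probes. The log2 fold change was then 1.30 for miR-16 and -0.13 for miR-497 (also 1.30 and -0.13 with those library sizes), the spread difference 0.675, and the ratio differences 0.0119 for miR-451, -0.0565 for miR-126 and 0.0576 for miR-23a. The filter of 10 counts in all 12 rats removed miR-16, so it gives no value there.

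With library size scaling the log2 fold changes were -0.23 for miR-16, -0.29 for miR-15b and -0.23 for miR-195, where the median over all probes moved from 0.05 to -0.33, and the rho of miR-15b with miR-16 was -0.10. Other signs that turned for miR-16 were -2.27 by limma-voom, -1.96 by the exact permutation test, both of which average logarithms, and -0.0296 in workflow 6. For miR-15b they were -0.10, -0.20 and -0.0411 in workflows 9, 12 and 13. miR-195 was below 0 in workflows 3 to 14, at -0.38, -0.28, -0.22, -0.12, -0.0478, -0.0173, -0.18, -0.19, -0.21, -0.18, -0.19 and -0.10. miR-497 was above 0 on raw counts (0.0493), in younger rats alone (0.0335) and in workflow 2 (0.0240).

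With any 1 rat left out, the log2 fold change lay between 0.21 and 1.01 for miR-16, 0.08 and 0.35 for miR-15b, 0.13 and 0.47 for miR-195 and -0.18 and 0.16 for miR-497. The age interaction lay between -8.48 and -1.10 for miR-16 and -0.59 and 0.34 for miR-195, and with library size it was 0.12 for miR-195 and 0.18 for miR-15b. The miR-451 ratio difference lay between -2.61 and -1.03. The rho of miR-16 lay between 0.909 and 0.964 with miR-451, -0.26 and 0.12 with miR-122, and -0.21 and 0.19 with miR-206. With miR-206 it was -0.26 by library size, -0.0699 by DESeq2 size factors and -0.40 by total RNA normalisers, and with miR-133a it was 0.16 on raw counts. miR-15b was above background in 3 rats at the mean + 2 SD. The cause of these shifts was not tested.

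The replicate numbers did not pair the rats. Deviations of same-numbered rats correlated between -0.312 and 0.251, and 2 of 12 rats correlated best with their own number. With the replicate number as a block, miR-16 had a log2 fold change of -0.88, 0 probes were called, and 3 instead of 11 probes had an unadjusted p under 0.05. Counts under about 30 per rat, as for all members but miR-16 in most rats, are close to unspecific signal, which limits what the fold changes of miR-15b, miR-195 and miR-497 can show.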
